A study of Homo sapiens with 4 samples.

Results

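Described here are 1203 shared distal regions of open chromatin whose ATAC-seq peaks were weaker in MCF10A cells with induced, active TAZ than without. Peaks of the Dox and the No Dox list that overlapped or touched on chromosomes 1 to 22 and X were merged, which gave 149858 regions, of which 48557 held peaks of both lists and 28193 of those lay more than 3 kb from any annotated transcription start site (TSS). From these shared distal regions the members were selected on their folds, as those in which the highest fold of the Dox list was at most 0.5 times the highest fold of the No Dox list. The fold is the enrichment of the ATAC-seq signal at a peak summit over the background of its list. Whether folds were scaled between the lists is not stated, so a ratio compares each region with its own list's background and is no measure of absolute loss. The 1203 members were 4.27% of the shared distal regions. For comparison, 1052 regions (3.73%), called strengthened below, had a Dox fold of at least 2 times the No Dox fold. Since the lowest fold in the Dox list was 2.71, a region needed a No Dox fold of at least 5.43 to be selected, and 11626 shared distal regions reached it. Members were 10.3% of these eligible regions, and the other 10423 are the comparison used below. The fold and its ratio chose the members, so these values are given as a description with no test.

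The cells were MCF10A, a non-transformed human mammary epithelial line, transduced with a tet-inducible TAZ-4SA, a constitutively active form of TAZ. Both groups carried the transgene and grew in the same medium with horse serum, EGF, hydrocortisone, cholera toxin and insulin, and they differed in doxycycline alone, absent in No Dox and given at 0.05 µg/mL for 72 h in Dox. ATAC-seq, in which a transposase cuts open DNA and tags it for sequencing, was run on 50000 cells per reaction with 2 replicates per condition, and the authors pooled the replicates into 1 peak list per condition, which leaves nothing to measure their spread by, and no p-value. The lists held 117740 peaks in No Dox and 84353 in Dox and hold no counts of reads, and depth is unknown. Doxycycline without the transgene was not analysed here, so the drug and TAZ-4SA cannot be told apart. In a bulk assay, a region that is open in fewer cells cannot be told from one that is less open in each cell.
Of 9 genes that mark basal mammary epithelium, 7 had a promoter peak in No Dox and 8 in Dox. TP63, which encodes p63, had one in Dox alone, and KRT14 had none in either. All 4 pan-epithelial genes had one in both lists, the 4 immune markers had none in either, and 1 of 4 endothelial markers, KDR, had one in both. Luminal genes were represented too, with promoter peaks at 4 of 4 in No Dox and 3 in Dox, where PGR had none.

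Distal open regions are mostly enhancers, stretches where transcription factors bind and displace nucleosomes. TAZ has no DNA-binding domain of its own and reaches DNA chiefly through the TEAD factors, often next to AP-1, the dimer of FOS and JUN proteins, which is abundant at enhancers of epithelial cells grown with EGF. Basal epithelial cells also depend on p63, a relative of p53 that binds the same kind of site, and on the grainyhead-like (GRHL) factors, which keep epithelial enhancers open.

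The sequences of members are shown to let a reader see what the windows hold. Each is the plus strand of hg38 from 100 bases before to 100 bases after the strongest No Dox summit, in lower case with the motif match in capitals. Capitals mark AP-1, TEAD and p53/p63 matches alone, and matches of other motifs are left unmarked. The first 4 are the members with the lowest ratios among those with an AP-1 match (TGAGTCA or its complement TGACTCA).
chr11:101718495-101718695, nearest TRPC6: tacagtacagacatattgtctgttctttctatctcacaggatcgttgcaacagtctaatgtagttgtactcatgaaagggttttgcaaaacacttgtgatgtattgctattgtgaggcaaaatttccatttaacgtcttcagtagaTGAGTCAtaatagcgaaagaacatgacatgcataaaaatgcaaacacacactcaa
chr3:149367163-149367363, nearest TM4SF1: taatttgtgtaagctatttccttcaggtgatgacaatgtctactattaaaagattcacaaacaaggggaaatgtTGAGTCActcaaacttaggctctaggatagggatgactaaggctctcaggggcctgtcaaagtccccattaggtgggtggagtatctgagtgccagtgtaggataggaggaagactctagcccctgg
chr1:218874362-218874562, nearest LYPLAL1: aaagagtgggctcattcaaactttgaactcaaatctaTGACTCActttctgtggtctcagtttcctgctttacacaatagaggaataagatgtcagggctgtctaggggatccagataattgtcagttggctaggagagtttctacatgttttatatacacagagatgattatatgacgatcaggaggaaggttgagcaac
chr6:100297250-100297450, nearest SIM1: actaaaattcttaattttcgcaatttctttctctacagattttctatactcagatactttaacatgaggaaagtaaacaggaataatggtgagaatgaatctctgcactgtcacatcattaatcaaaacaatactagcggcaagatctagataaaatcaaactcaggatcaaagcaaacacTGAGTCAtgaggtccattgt
The match lay 46 to 52 bases after the summit near TRPC6, a cation channel, 26 to 20 bases before it near TM4SF1, a membrane protein of the tetraspanin-like L6 family, 63 to 57 bases before it near LYPLAL1 and 81 to 87 bases after it near SIM1, a transcription factor gene. The TRPC6 region lay in an intron of that gene and the others between genes, 8.14 kb from the TSS of TM4SF1, 299 kb from that of LYPLAL1 and 166 kb from that of SIM1. The folds in No Dox and Dox were 16.7 and 3.39 near TRPC6, 16.5 and 3.39 near TM4SF1, 26.7 and 5.65 near LYPLAL1, and 13.98 and 3.16 near SIM1.

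Among members with neither an AP-1 nor a TEAD match, the one shown lay in an intron of FAT3, an atypical cadherin. It held no p53/p63 match either, so no letters are in capitals, though it held a SOX match.
chr11:92707253-92707453, nearest FAT3: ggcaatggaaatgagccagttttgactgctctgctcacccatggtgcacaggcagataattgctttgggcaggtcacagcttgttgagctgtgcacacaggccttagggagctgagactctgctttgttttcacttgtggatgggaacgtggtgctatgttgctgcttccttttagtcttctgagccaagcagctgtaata
Members of low ratio with a p53/p63 match, chosen after the share of this motif was seen, were in an intergenic region near MYF5 and in an intron shared by CRMP1 and EVC. Both also held an AP-1 match, 23 to 29 bases after the summit near MYF5 and 30 to 24 bases before it in EVC, and both matches are in capitals.
chr12:80778172-80778372, nearest MYF5: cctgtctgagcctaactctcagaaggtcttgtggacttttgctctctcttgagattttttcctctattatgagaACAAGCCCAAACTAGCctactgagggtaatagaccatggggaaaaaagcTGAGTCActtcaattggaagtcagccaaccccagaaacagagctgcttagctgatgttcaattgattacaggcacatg
chr4:5773281-5773481, nearest EVC: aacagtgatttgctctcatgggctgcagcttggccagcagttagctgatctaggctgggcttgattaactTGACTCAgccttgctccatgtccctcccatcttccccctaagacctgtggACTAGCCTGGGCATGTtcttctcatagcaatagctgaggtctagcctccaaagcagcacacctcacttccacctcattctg
The p53/p63 match lay 26 to 11 bases before the summit near MYF5 and 20 to 35 bases after it in EVC. The strongest Dox summit of the EVC region, at chr4:5772731, lay outside the window shown, so its folds came from different places. The same holds for the FAT3 region, with its Dox summit at chr11:92707224, and the TM4SF1 region, with its Dox summit at chr3:149367002.

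Members with a TEAD match (GCATTCC or ACATTCC, on either strand) were few. Those with the lowest ratio lay in introns, the first in TENM4, a teneurin, with the match 40 to 34 bases before the summit and folds of 13.3 in No Dox and 3.84 in Dox. The other, whose nearest coding gene was IGSF11 at 324 kb, had the match 70 to 76 bases after the summit and folds of 11.4 and 3.62.
chr11:78886660-78886860, nearest TENM4: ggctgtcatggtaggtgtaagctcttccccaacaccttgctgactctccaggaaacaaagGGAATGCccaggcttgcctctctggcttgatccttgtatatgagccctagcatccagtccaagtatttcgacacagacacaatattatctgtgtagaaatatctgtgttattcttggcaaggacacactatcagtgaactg
chr3:118688648-118688848, nearest IGSF11: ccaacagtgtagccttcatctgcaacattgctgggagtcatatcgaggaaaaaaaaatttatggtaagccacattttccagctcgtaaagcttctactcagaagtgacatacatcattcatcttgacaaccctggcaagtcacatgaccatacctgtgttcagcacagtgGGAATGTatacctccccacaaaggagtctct
The genes nearest to the most members were CHRM3, a muscarinic acetylcholine receptor, and TRABD2B, a membrane metalloprotease. The lowest-ratio member of each lay in an intron of the gene and held an AP-1 match, 34 to 40 and 31 to 37 bases after the summit.
chr1:239893453-239893653, nearest CHRM3: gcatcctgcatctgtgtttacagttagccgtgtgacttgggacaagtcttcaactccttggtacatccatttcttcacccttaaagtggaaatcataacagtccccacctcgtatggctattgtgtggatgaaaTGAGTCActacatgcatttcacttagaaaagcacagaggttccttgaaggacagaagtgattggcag
chr1:47906114-47906314, nearest TRABD2B: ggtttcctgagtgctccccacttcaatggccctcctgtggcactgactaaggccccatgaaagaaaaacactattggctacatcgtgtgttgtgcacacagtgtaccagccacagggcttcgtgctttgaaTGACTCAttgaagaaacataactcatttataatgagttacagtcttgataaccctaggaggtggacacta

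The members ranged widely in strength. In No Dox the highest fold had a median of 11.02, from 5.51 to 42.6, with quartiles at 8.69 and 14.4. In Dox it had a median of 4.29, from 2.71 to 20.6, with quartiles at 3.62 and 5.65. All folds were whole multiples of a step of 0.212 in No Dox and 0.226 in Dox (within 0.01 of a step in 100% of peaks), so many regions share the same value. The lowest peak of each list stood at 12 steps. The ratio had a median of 0.435. Only 7 members had a ratio of at most 0.2, 86 lay from there to 0.3, 308 to 0.4 and 802 between 0.4 and 0.5, so most members lay near the limit. Over all 48557 shared regions the median ratio was 0.949, over the shared distal regions 0.953 and over the 16575 shared regions within 1 kb of a TSS 0.939. In the eligible regions the median was 0.789, and 73.6% of them were below 1. Those regions were picked for a No Dox fold of at least 5.43 with no such limit in Dox. That choice by itself lowers their ratios, so 0.789 does not show that strong regions weakened in general.
The 3 members nearest to the limit had ratios of 0.4995 to 0.4998, nearest to PTPRK, KCNA4 and SLIT2, and the 3 nearest regions above it stood at 0.5002, nearest to GPR153, CNTN4 and FBXW7. The last 3 all had a fold of 6.78 in No Dox and 3.39 in Dox, and a Dox fold lower by a single step would have put them inside the limit.

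**Figure D1:**
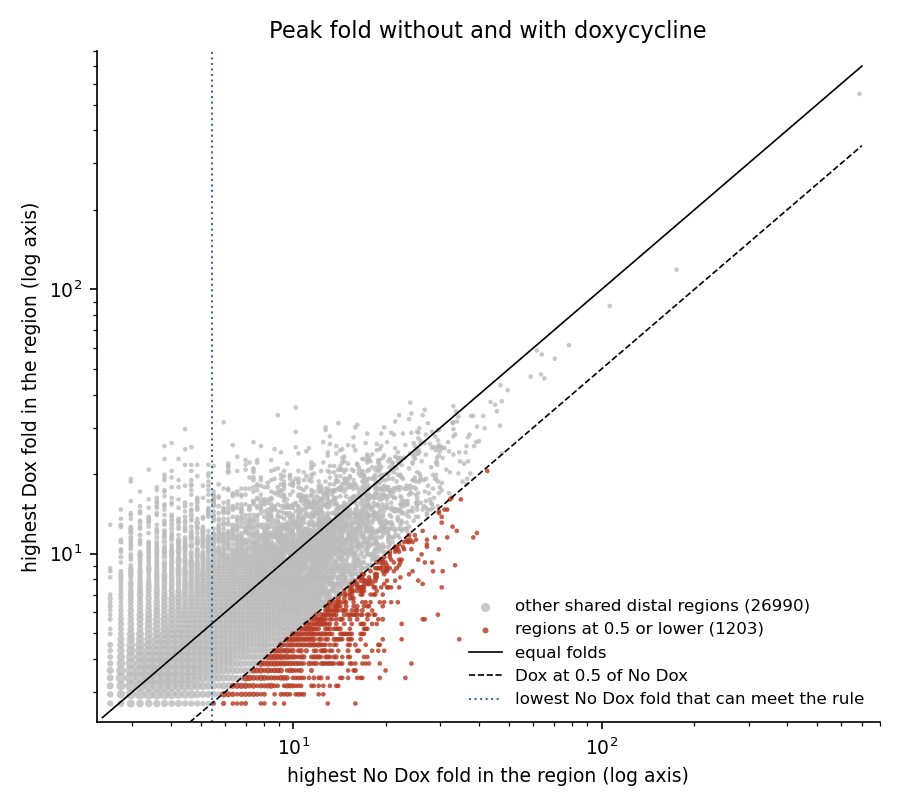
Highest fold per region in No Dox (x axis) and Dox (y axis), both log axes without a unit, for all shared distal regions, with 1 point per pair of folds and its size growing with the number of regions there. The 1203 members (red) lie at or below the dashed line where Dox is 0.5 of No Dox, to the right of the dotted line at 5.43, and the rows of points are the whole steps of the folds.

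The Dox peaks of the members were also narrower. The strongest No Dox peak of a member had a median width of 1000 bp and the strongest Dox peak 472 bp, and the merged region 1023 bp. In 95.3% of members each list gave 1 peak. The summits of the lists lay a median of 55 bp apart, against 46 bp in the eligible other regions, and 83.0% of members had them within 200 bp. The farthest pair lay 3318 bp apart, so the folds of some regions were taken from different places. A width depends on the height of a peak, which the rule used, and is no separate result.

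The q-values of the members differed in the same way as their folds. The −log10 q-value of the strongest peak had a median of 36.7 in No Dox, from 10.8 to 259, and of 5.998 in Dox, from 1.74 to 88.8. It comes from the same peaks as the fold and is no separate result.

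Of the 10 members of lowest ratio 8 are described, and these had No Dox folds from 15.9 to 29.4 and Dox folds from 2.71 to 5.88. The region in FAT3 shown above had folds of 23.1 and 3.39 (ratio 0.147). That in an intron of SNCAIP, which encodes a synuclein-interacting protein, had 24.1 and 3.84 (0.159). An intronic region of ARHGAP26, which encodes a GTPase-activating protein, had 15.9 and 2.71 (0.171), and its Dox fold was the lowest value of the list.
Several of them were far from any coding gene. The region nearest to GHITM lay 155 kb away, with folds of 19.9 and 3.62 (0.182). That nearest to TGFB2, a TGF-beta ligand, lay 365 kb away, with 29.4 and 5.88 (0.200), and that nearest to SUCLG1 lay 716 kb away, with 19.1 and 3.84 (0.202). The SUCLG1 folds came from different places, with summits at chr2:83742451 in No Dox and chr2:83742725 in Dox.
The remaining pair were the regions of TRPC6 and TM4SF1 shown above, at 134 kb and 8.14 kb from the TSS and with ratios of 0.203 and 0.205. Of these 8 members 2 held an AP-1 match and 0 a TEAD or p53/p63 match.

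**Figure D2:**
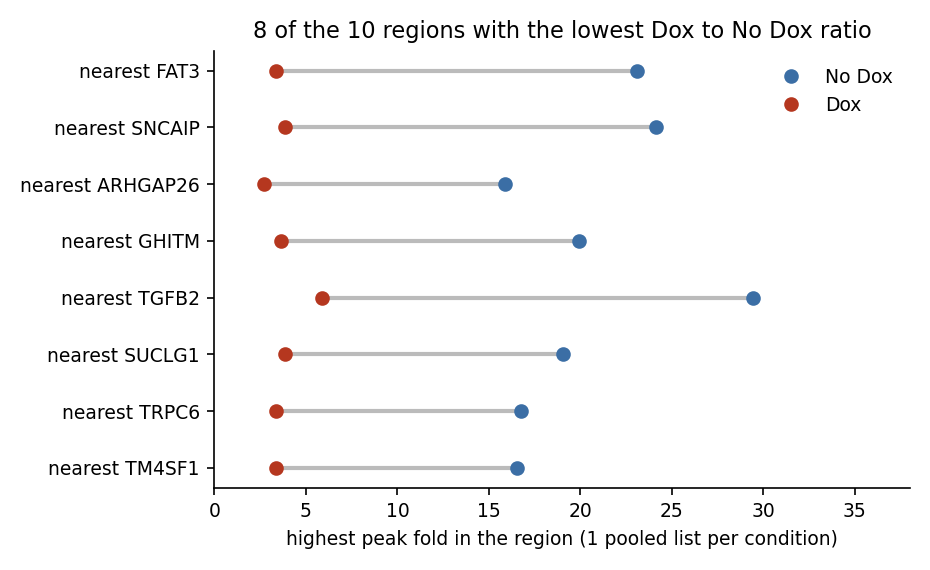
Highest peak fold (x axis, no unit) in No Dox (blue) and Dox (red) of 8 of the 10 members with the lowest ratio, named by the nearest coding gene and ordered from the lowest ratio (top). Each value comes from 1 pooled list, so there are no error bars, and all Dox folds are at or below 5.88 while No Dox folds run from 15.9 to 29.4.

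Sequence was not used by the rule, and TEAD motifs were rarer in members than in other regions of the required strength. A TEAD match lay within 100 bp of the No Dox summit in 60 members, 4.99% (95% confidence interval 3.83 to 6.37, exact Clopper-Pearson, which covers counting error only), and in 1382 eligible other regions, 13.3% (12.6 to 13.9). The difference was -8.27 percentage points (-9.55 to -6.75, Newcombe interval). The share was lower in members in each stratum of strength, with 3.21% of members and 12.9% of others at a No Dox fold under 8, 6.60% and 13.5% from 8 to 10, 4.41% and 13.1% from 10 to 12, 4.43% and 15.6% from 12 to 16, and 5.38% and 12.3% from 16. The TEAD letters read backwards, a control of the same base composition, were in 2.49% of members and 2.32% of others. Strengthened regions held the TEAD match in 39.7% (36.8 to 42.8), and all shared distal regions in 11.1%. The low share was not particular to members. Distal regions with a peak in No Dox alone, of at least the same No Dox fold, numbered 3182 and held TEAD in 4.81% (4.09 to 5.61).
In members the TEAD match did not gather at the summit. In bins of 20 bp, 0.399% of members on average had a match centred in each of the 5 bins nearest to the summit (0.249 to 0.665%), and 0.515% in the 10 bins 160 bp or more away (0.333 to 0.831%). In the eligible other regions the averages were 1.69% and 0.715%. AP-1 matches did gather at the summit in both sets, with 6.38% against 0.840% in members and 5.39% against 0.704% in others.

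**Figure D3:**
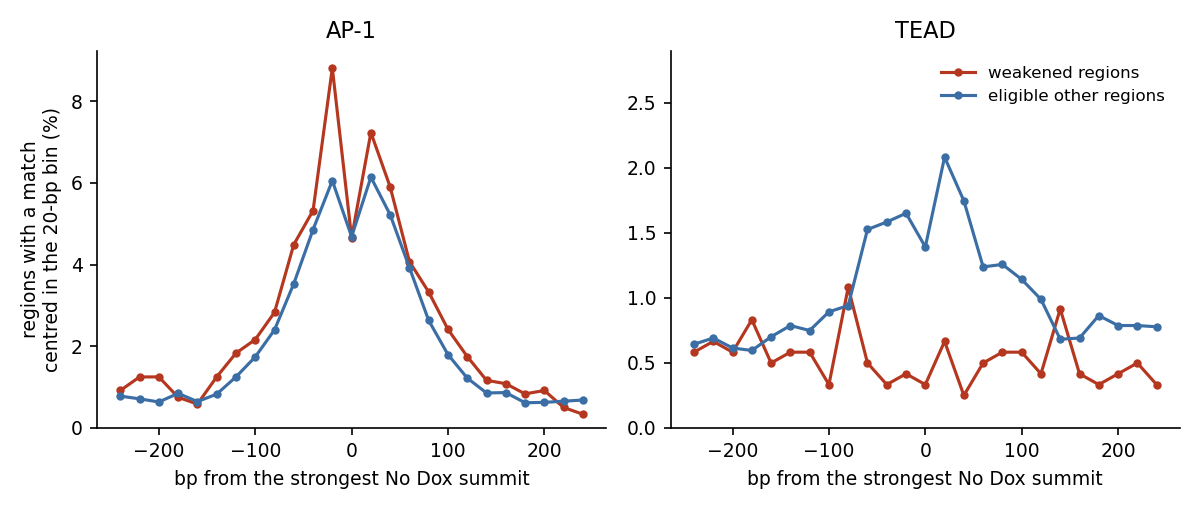
Percent of regions with an AP-1 (left) or TEAD (right) match centred in each 20-bp bin (y axis) by distance from the strongest No Dox summit in bp (x axis), for members (red) and eligible other regions (blue). AP-1 rises at the summit in both sets, and TEAD rises to 2.08% in the other regions while no bin within 40 bp of the summit exceeds 0.665% in members.

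Within the eligible regions the TEAD share followed the ratio over its whole range. It was 1.08% (1 of 93) at a ratio of at most 0.3, 3.57% up to 0.4, 5.99% up to 0.5, 5.30% up to 0.6, 7.49% up to 0.7, 10.4% up to 0.8, 11.9% up to 1, 27.9% from 1.5 to 2 and 31.3% above 2. The share was nearly equal on both sides of the limit of 0.5, and the intervals of neighbouring bins overlapped at the low end. Seen from the motif, 4.16% of the 1442 eligible regions with a TEAD match were members (3.19 to 5.32), against 10.3% of all eligible regions. Their median ratio was 0.988. Members with both AP-1 and TEAD were 23 (1.91%), against 4.20% of others. The 60 members with a TEAD match had a median fold of 10.9 in No Dox and 4.75 in Dox.

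AP-1 was the commonest motif of the members, and its difference from the other regions narrowed when regions of equal strength were compared. It was in 518 members, 43.1% (40.2 to 45.9), and in 36.0% of the others (35.1 to 37.0), a difference of 7.03 points (4.11 to 9.99). Members were stronger than others, with a median No Dox fold of 11.02 against 7.63. Averaged over the 5 strata of No Dox fold with the members' weights, the others held AP-1 in 40.002%, and averaged over fold and 5 strata of GC content in 41.2%, which is inside the members' interval. Both averages were added after the plain shares were seen. The share was 36.4% in members and 31.8% in others at a fold under 8, 41.8% and 39.5% from 8 to 10, 39.7% and 41.8% from 10 to 12, 46.5% and 41.4% from 12 to 16, and 49.3% and 44.2% from 16. The median distance from the summit to the nearest AP-1 match was 33.5 bp in members and 34 bp in others, and 5.24% and 4.64% held 2 or more. The reversed AP-1 letters were in 4.24% and 4.74%. Strengthened regions held AP-1 in 21.2% (18.8 to 23.8), and all shared distal regions in 24.0%.

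The p53/p63 motif had few matches and a wide difference in proportion. It was in 29 members, 2.41% (1.62 to 3.44), and in 60 others, 0.576% (0.440 to 0.740), a difference of 1.83 points (1.09 to 2.87). Averaged over fold and GC strata the others held 0.573%, and all shared distal regions held 0.575%. The No-Dox-only distal regions of the required fold held it in 2.58% (2.05 to 3.19), close to the members' share. In the 5 strata of fold the share was higher in members each time, from 1.60% to 2.94% against 0.292% to 0.762%, and the intervals did not overlap from a fold of 8 to 10 and from 10 to 12. Of the 89 eligible regions with the motif, 32.6% were members (23.02 to 43.3), against 10.3% of all eligible regions, and their median ratio was 0.590, with 88.8% below 1. The share of 32.6% was not compared at equal fold, and the 89 regions had a median No Dox fold of 8.90, against 7.84 over all eligible regions. Of the 25 that also held AP-1, 11 were members. The reversed letters were found in 0.0831% of members and 0.0192% of others. By ratio, the share was 3.23% up to 0.3, 2.60% up to 0.4, 2.24% up to 0.5, 1.21% up to 0.6 and 0.671% up to 0.7. No region above a ratio of 1.5 held it in the eligible set (0 of 488 up to 2, with an exact upper limit of 0.753%, and 0 of 195 beyond, with 1.87%).
The 29 members with the motif lay on 12 chromosomes and had a median fold of 11.02 in No Dox, from 6.99 to 34.95, and of 4.52 in Dox, from 2.94 to 16.05. The match was centred a median of 28.5 bp from the summit, within 50 bp in 20 of them. Besides AP-1 in 11, they held GRHL in 2 and TEAD in 2. Besides MYF5 and EVC, low ratios among them were 0.338 near MTHFD1L, a mitochondrial enzyme of folate metabolism, 0.364 in a region 544 kb from CSNK1G3, 0.365 in a region 150 kb from SFRP1, a secreted Wnt antagonist, and 0.368 in a region 65.1 kb from PALMD. These genes, too, were named after their values were seen. The search does not tell p63 from p53 or p73, whose sites share these letters.

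The other motifs with a difference varied in how it held at equal base composition. GRHL (AACNNGTT) was in 60 members, 4.99% (3.83 to 6.37), against 2.84% of others and 3.19% of others at equal fold and GC. The GRHL difference was widest at a No Dox fold under 8, with 8.02% of members and 2.71% of others. It kept its direction in the strata up to 16, but from 16 the shares were 2.69% and 3.08%. Its reversed form TTGNNCAA, which can overlap the C/EBP motif, was also more frequent in members, 12.5% against 9.80%. C/EBP (TTGCNNAA), the site of a bZIP family, was in 25.4% (22.996 to 28.0) against 18.9%, and in 23.1% of others at equal fold and GC, which is inside the members' interval. SOX (AACAATG or AACAAAG) was in 13.5% (11.7 to 15.6) against 8.41%, and 9.57% at equal fold and GC. But its reversed letters were also commoner, 8.23% against 5.74%, and 6.76% at equal fold and GC.
CTCF, the protein that anchors chromatin loops, had its motif in 4 members, 0.333% (0.0907 to 0.849), against 2.38% of others (2.10 to 2.69) and 1.28% at equal fold and GC. In each stratum below a No Dox fold of 16 members held the CTCF motif less often. From 16 it was in 1 of 223 members and 1 of 715 others. Only 1.59% of the 252 eligible regions with it were members. Their median ratio was 0.826. KLF and SP boxes (CCACACCC or CCCCGCCC) were in 2.83% (1.97 to 3.93) against 5.82%, and 4.82% at equal fold and GC. Their reversed letters were also rarer in members, 2.24% against 3.61%, and 2.78% at equal fold and GC. AP-2 (GCCNNNGGC) was in 8.15% (6.66 to 9.84) against 10.6%, and 9.43% at equal fold and GC. Its reversed letters were in 0.0831% against 1.76%, and 1.24% at equal fold and GC. RUNX (TGTGGTT) was in 7.23% (5.83 to 8.84) against 7.92%, and 9.36% at equal fold and GC.
Of all 22 motifs, 5 were more frequent in members with an interval of the difference above 0, 4 less frequent with an interval below 0, and 13 had an interval that held 0. At equal fold and GC, the average of the others lay outside the members' interval for 7 motifs, above it for TEAD, CTCF, KLF and SP, and RUNX and below it for p53/p63, GRHL and SOX. The No-Dox-only distal regions of the required fold, whose median fold was 6.57, held most of these motifs at shares whose intervals overlapped the members'. They held AP-1 in 39.1% (37.4 to 40.8), C/EBP in 26.3%, SOX in 13.3%, GRHL in 4.56%, AP-2 in 7.79%, and KLF and SP boxes in 2.64%. CTCF was in 1.54% of them (1.14 to 2.03), above the interval of the members. In 49.9% of members none of AP-1, TEAD, p53/p63 and GRHL matched, against 52.9% of others.

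**Figure D4:**
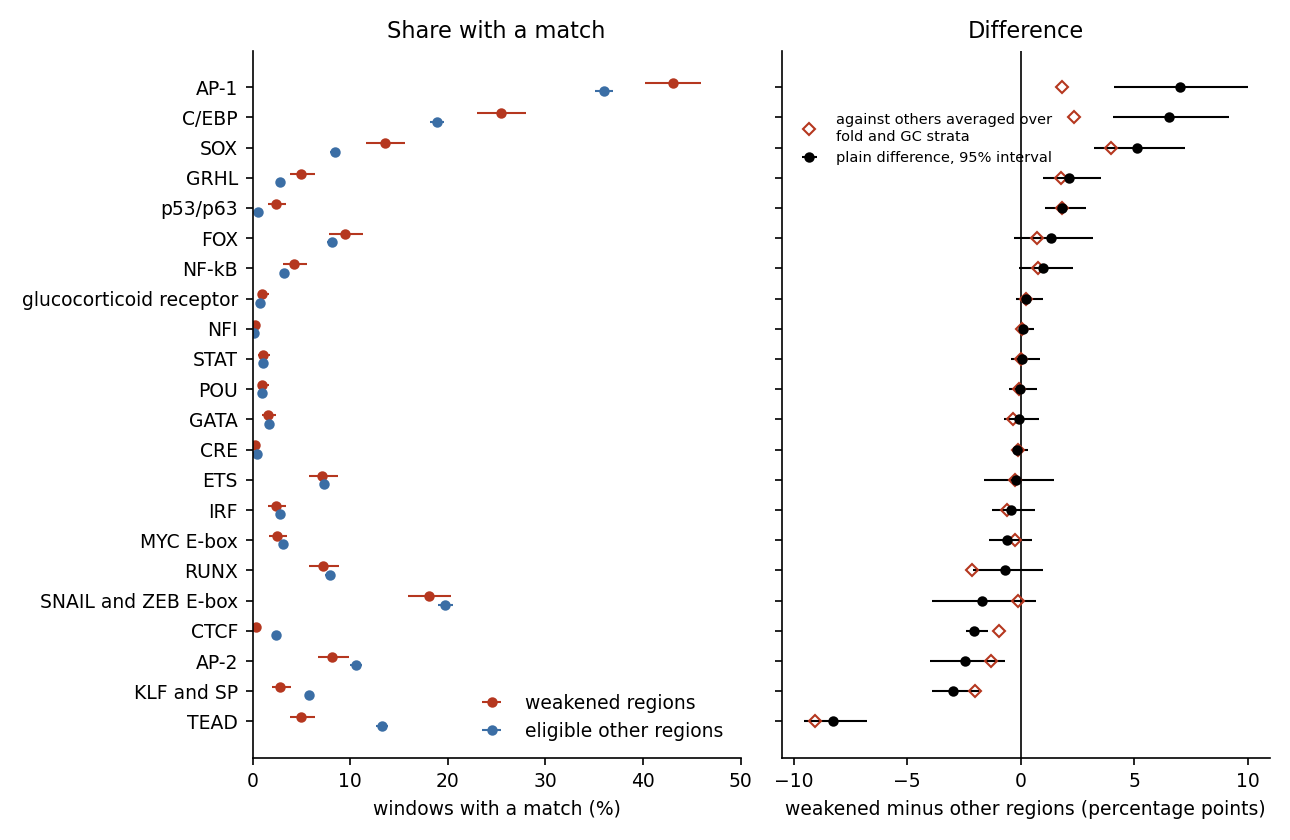
Left, percent of windows with a match within 100 bp of the summit (x axis) for each of the 22 motifs in members (red) and eligible other regions (blue), with 95% Clopper-Pearson intervals. Right, the difference in percentage points with its 95% Newcombe interval (black) and the difference from the average of others at equal fold and GC (open diamonds), where AP-1 moves from 7.03 points towards 0 and TEAD stays near -8.27.

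**Figure D5:**
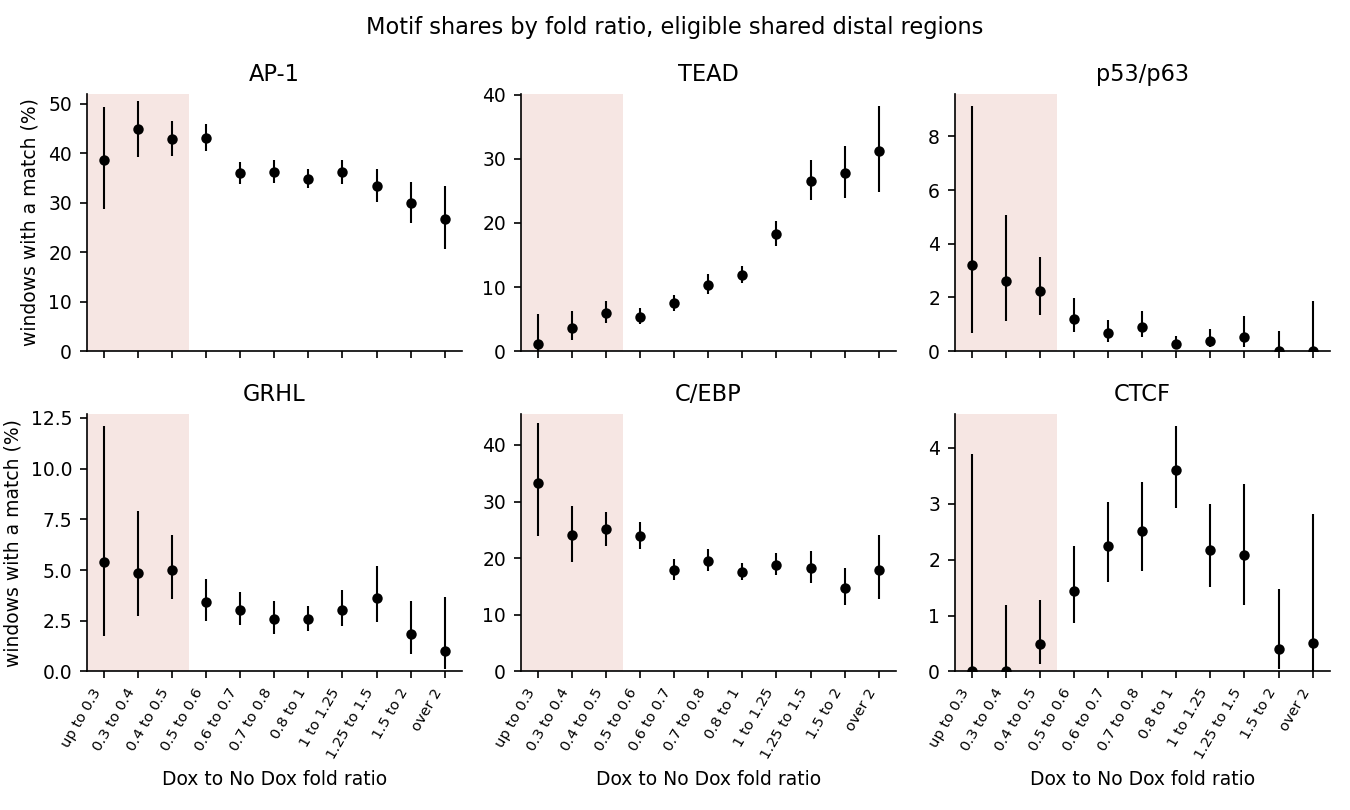
Percent of eligible regions with a match (y axis) of 6 motifs by Dox to No Dox fold ratio (x axis bins), with 95% Clopper-Pearson intervals the members' bins shaded and a y axis of its own for each motif. TEAD goes from 1.08% to 31.3% over the bins, p53/p63 from 3.23% to 0 of 195, neither in every step, and CTCF is highest, at 3.60%, between 0.8 and 1.

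Words of 6 bases, counted with no motif given, held the same letters. Ranked by their difference between members and others, divided by its counting error, on odd-numbered chromosomes, the first 8 words higher in members included GACTCA and GAGTCA of the AP-1 site, and the first 8 lower in members included CATTCC and ACATTC of the TEAD site. CATTCC was in 10.7% of members and 20.6% of others there, and in 11.3% and 21.6% on the remaining chromosomes. GACTCA was in 47.6% and 38.1% there, and in 45.6% and 42.0% on the rest. On the chromosomes that did not rank them, 8 of 8 words of each kind had the same direction, some by little, such as ACTCAT (26.0% against 25.1%). Several of the words overlap each other, and none was compared at equal fold or GC, so the counts of 8 are a description only. Most other words lower in members held a CpG, such as CCGCCC (3.83% against 9.26%), and most others higher in members were rich in A and T, such as AACAAT (16.9% against 10.9%).
The windows themselves were poorer in GC. Their median GC content was 45.8% in members (quartiles 40.8 and 51.7) and 47.8% in others, and they held 2.12 CpG on average against 3.26. No CpG was found in 19.0% of members (16.9 to 21.4) and 14.6% of others (13.97 to 15.3).

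In position the members resembled other distal regions. Introns held 54.9% of them (52.1 to 57.8) and 55.4% of others, intergenic DNA 42.6% and 42.2%, and exons 2.49% and 2.44%. They lay somewhat farther from a TSS, at a median of 21.7 kb against 19.0 kb, and 9.48% of them (7.88 to 11.3) were more than 100 kb from any TSS against 6.76% of others (6.29 to 7.26).
Regions found in No Dox alone were more often near to members. A No-Dox-only region lay within 10 kb of 51.3% of members (48.4 to 54.1), against 42.7% of eligible other regions (41.7 to 43.6) and 43.4% of the strengthened regions. A Dox-only region lay within 10 kb of 24.0% of members (21.6 to 26.5) and 28.8% of others (27.9 to 29.6), and another shared region lay that near to 45.1% and 45.9%. Both counts come from the same peak lists as the ratio. Chromosomes 1, 5 and 8 held 37.4% of members and 33.9% of others. Without these chromosomes the shares near a No-Dox-only region were 40.6% (37.1 to 44.2) and 33.1% (32.0 to 34.3).
Members also lay near each other. Another member was within 50 kb of 170 members, 14.1% (12.2 to 16.2), and a member was that near to 9.57% of the others (9.02 to 10.2). Membership comes from the ratio, and these shares were not compared at equal fold or without chromosomes 1, 5 and 8. Members within 50 kb of each other are grouped into runs below. The members formed 82 runs of 2 or 3, of which 6 were runs of 3. The run within CHRM3 spanned 31.7 kb, chr1:239878856-239910554, and all 3 eligible regions in it were members, beside 7 No-Dox-only and 3 Dox-only regions. Another, in PLD5, spanned 25.3 kb, chr1:242218546-242243888, with 3 of 4 eligible regions, and one in TRABD2B spanned 37.7 kb, chr1:47904832-47942573, also with 3 of 4. A run nearest to B3GALT2 spanned 75.7 kb with 3 of 5. Runs are made of members and start and end at them, so these counts are fixed in part by that choice. They are no local share to set against 10.3%.
Every chromosome held members. Their share of the eligible regions ran from 3.70% on chromosome 22 (2 of 54, 0.452 to 12.7) to 12.7% on chromosome 8 (112 of 882, 10.6 to 15.1), and the interval held 10.3% on every chromosome except chromosome 8.

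Few genes had more than 1 member. Within 100 kb of a coding TSS lay 641 members, which were 9.16% of the 6998 eligible regions there, against 10.3% of all eligible regions, and they were nearest to 556 genes, of which 481 had 1 member, 70 had 2 and 5 had 3 or more. The other 562 members were farther away. The nearest gene is a label for a place and need not be the gene a region acts on.
CHRM3 had 6 members of 19 eligible regions, with ratios from 0.272 to 0.493 and No Dox folds from 8.26 to 23.9, and 4 of the 6 held an AP-1 match. TRABD2B had 4 of 6 eligible regions, with ratios from 0.364 to 0.467, and AP-1 was in 2 of them. PXDN, which encodes peroxidasin, an enzyme of basement membranes, had 4 of 11, with ratios from 0.432 to 0.497, and 0 of the 4 held AP-1. KCNH1, a potassium channel, had 3 of 13 (0.328 to 0.498), and ANKS1B, which encodes a scaffold protein, had 3 of 5 (0.434 to 0.457).
The next genes had 2 members each. They included ARHGAP26 (2 of 11, median ratio 0.272), SLCO3A1, an organic anion transporter (2 of 4, 0.326), PALMD (2 of 3, 0.334), and TENM2, a teneurin (2 of 13, 0.335). CHRM3, KCNH1 and PALMD lie on chromosome 1, as does TRABD2B.

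Of 19 lists of genes known for a pathway or cell type, 10 had a member near one of their genes, and for all 19 the interval of the share held the 9.16% of all eligible regions within 100 kb. The lists were made with earlier results of these data known. For YAP/TAZ targets 1 of 47 eligible regions was a member (2.13%, 0.0539 to 11.3), at TEAD1, and 4 of the 47 were strengthened, against 108 of the 6998 eligible regions over all genes. Strengthened regions with a No Dox fold under 5.43 were not counted here. The median ratio of these 47 regions was 0.951, against 0.800 over all. Hippo pathway genes had 2 of 25 (8%), that same region in an intron of TEAD1 (folds 10.6 and 4.75) and one near AMOT, which encodes angiomotin, a binder of YAP and TAZ (15.9 and 3.62, ratio 0.228). The AMOT folds came from different places, with summits at chrX:112851638 in No Dox and chrX:112852085 in Dox.
Genes of the basal epithelium and p63 had 4 of 31 (12.9%, 3.63 to 29.8) and a median ratio of 0.728. They included 2 intergenic regions near FAT2, an atypical cadherin of basal cells (16.7 and 5.88, and 18.4 and 8.14), and one in an intron of TP63, which encodes p63 (8.26 and 3.62). The FAT2 region of lower ratio held an AP-1 match, and the TP63 region none of the 4 main motifs. Luminal genes had 2 of 10 (20.0%, 2.52 to 55.6), near PGR, the progesterone receptor (9.74 and 3.62), and ESR1, the oestrogen receptor (10.2 and 4.97).
Integrin genes had 3 of 15 (20.0%, 4.33 to 48.1). Of these, 2 were in introns of ITGA2, a collagen-binding integrin subunit (9.32 and 3.39, and 6.57 and 3.16), and one was in an exon of ITGB8 (29.7 and 14.5) and held both AP-1 and TEAD. NF kappa B and TNF genes had 2 of 11 (18.2%, 2.28 to 51.8), near CCL20, a chemokine (14.6 and 5.88), and NFKB1, the p50 subunit (9.74 and 4.07), the latter with a TEAD match.
The others with a member had 1 each. These were NR3C1, the glucocorticoid receptor (15.5 and 5.88), of 12 regions of glucocorticoid genes, PSPH, an enzyme of serine synthesis (16.9 and 5.43), of 7 of amino-acid genes, MKI67, a marker of cycling cells (9.11 and 4.07), of 9 of cell cycle genes, and CDH2, N-cadherin (5.93 and 2.94), of 18 of mesenchymal genes. Epithelial junction genes had 0 of 29, which allows up to 11.9%, TGF-beta genes 0 of 18, AP-1 family genes 0 of 14, and EGF receptor genes 0 of 13. There was also no member among 11 regions of housekeeping genes, 5 of endothelial markers, 4 of immune markers, 3 of interferon genes and 2 of complement genes, numbers too small to show a share near 9.16%.
Promoters of the genes nearest to members were not chosen by their ratio, as the members were, so no comparison with the members is drawn. Promoters without a peak in both lists have no ratio and are left out. Of the 556 genes nearest to members, 421 had a shared peak within 1 kb of a TSS. The median ratio there was 0.831 (quartiles 0.708 and 0.970), and 8 (1.90%) were at 0.5 or lower. For 2514 promoters of genes nearest to other eligible regions alone, the median was 0.872 (0.751 and 1.02), and 29 (1.15%) were that low.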

How the data were processed

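ATAC-seq was made from 2 replicates of each condition. The authors aligned reads to hg38 with BWA, called peaks with MACS2 at a false discovery rate of 0.05 and deposited 1 pooled peak list per condition. Versions of both tools are not given in the sources used here. The deposited lists give the fold, a ratio of signal to background at the summit, and the −log10 q-value of each peak. Pooling leaves no spread between replicates, and the lists carry no depth, so no test was run. The authors' own lists of differential regions were not analysed here.

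Peaks were merged and placed against GENCODE 44, and sequence was read from hg38. Motifs were searched on both strands within 100 bases of the strongest No Dox summit, or of the Dox summit for strengthened regions. Besides those spelled in the results, the motifs were CRE (TGACGTCA), ETS (CGGAAGT or AGGAAGT), AP-2 (GCCNNNGGC), the SNAIL and ZEB E-box (CACCTG), the MYC E-box (CACGTG), FOX (TGTTTAC or TGTTTGC), POU (ATGCAAAT), the motif of GATA factors (AGATAAG), STAT (TTCCNGGAA), and NF-kB, glucocorticoid receptor, NFI, CTCF, IRF and p53/p63 by name. Matches of different motifs may overlap. Shares have exact Clopper-Pearson and differences Newcombe intervals at 95%, for counting error only.

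Regions named were the 10 members of lowest ratio and those nearest to the limit. Some of these regions and genes are not reported here. Genes named were the 10 nearest to the most members within 100 kb, and up to 3 per list. Sequences shown were the members of lowest ratio with AP-1, with TEAD or with neither, and of the 2 genes with the most members, leaving out chromosome 8. The p53/p63 examples were chosen after their share was seen, as was skipping coding genes without a symbol. The members and lists were chosen with earlier results of these data known. Alternatives varied the ratio limit, scaling, steps, summit distance, TSS set, q-value, merging, window and chromosomes. Scripts were tested on simulated data. Tools were Python 3.11.15, numpy 2.4.6, pandas 2.3.3, scipy 1.17.1, pysam 0.24.0, samtools 1.23.1 and matplotlib 3.10.9.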

Additional observations from a re-analysis of the deposited data

How the results depend on the processing

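No paired analysis was possible because the peak lists used here pool the replicates of each condition, and for the same reason no replicate could be left out. Reads per sample were not analysed here. Of 144 values under an alternative, 92 stayed within their interval, or 1.5 times for a count, and 52 moved. In 13 of 13 settings AP-1 was more frequent, TEAD less frequent and p53/p63 more frequent in members than in eligible other regions. The cause of the shifts was not tested. With a limit of 0.4 there were 401 members, 5.31% of eligible regions, with TEAD in 2.99%, introns at 51.9%, a No-Dox-only region within 10 kb of 54.6%, and AP-1 in 39.96% of others. With a limit of 0.6 there were 2616 (16.7%), and AP-1 in 30.9% of others. Folds as whole steps less 1 gave 1904 (13.2%) and 32.7%. Dividing Dox folds by the median ratio of shared regions gave a share of 8.67%. TSSs of coding transcripts alone gave 9.77%, with AP-1 in 34.3% and TEAD in 12.5% of others, and peaks with q of at most 0.01 gave 11.7% and AP-1 in 37.1%. Summits within 200 bp gave AP-1 in 37.6% and TEAD in 14.1% of others. Without chromosomes 1, 5 and 8 there were 753 members, with introns at 52.1% and a No-Dox-only region near 40.6%, and others held AP-1 in 38.3% and TEAD in 14.1%. Windows of 50 bp on each side gave AP-1 in 28.6% of members and 24.2% of others and TEAD in 1.91% and 7.87%, and whole regions 61.5% and 54.0%, and 27.3% and 36.4%. Around the Dox summit AP-1 was in 38.4% and 34.2%, and TEAD in 15.0% of others. Averages of others over fold, and over fold and GC, chosen after seeing the data, gave AP-1 at 40.002% and 41.2%, and the latter TEAD at 14.03%. For p53/p63, members and others stood at 4.66% and 2.21% over whole regions and 1.41% and 0.384% around the Dox summit, and others at 0.326% with windows of 50 bp and 0.755% with a limit of 0.4. The p53/p63 alternatives and those of the others near a No-Dox-only region were also added after seeing the data.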
